A study of Homo sapiens with 9 samples.

Results

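The 33 genes described here are imprinted genes, and all 33 were found by symbol among the 63856 genes of the count table. They were grouped as 22 genes known to be expressed from the paternal allele, 8 from the maternal allele, and 3 (GRB10, GNAS and BLCAP) listed as varying by isoform or tissue. The grouping is a simplification, since others also vary, such as UBE3A, which is counted as maternal and is maternal in neurons. RNA was sequenced from TCam-2, a human seminoma cell line derived from a testicular germ cell tumour, in 3 groups of 3 biological replicates each. The wild type (WT) was unmodified TCam-2. The negative control (NC) was TCam-2 transfected with a GFP-carrying px335_G2P vector bearing gRNAs that match nothing specific in the human genome. In the ESX1 group, in which that homeobox gene was activated, px335_G2P vectors with gRNAs against the region upstream of ESX1 were combined with PB-TRE-dCas9-VPR, a doxycycline-inducible Cas9 without nuclease activity fused to transcriptional activators. Both modified groups were selected with puromycin and doxycycline and collected after the selection, and the methods do not spell out whether NC also received the activator vector. In the study, only part of the modified cells showed GFP after the selection.

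Genomic imprinting marks some genes in the germ line so that, after fertilization, only the copy from the mother or only the copy from the father is used. The mark is DNA methylation at control regions, it is protected in the embryo by proteins such as ZFP57 and its cofactor TRIM28, and it is erased in primordial germ cells before being set anew in sperm and eggs. Seminoma cells resemble primordial germ cells, which makes imprinted genes a known reading of the germ cell state. The counts do not tell the alleles apart, so the values below are total RNA of both copies and say nothing about whether a gene was imprinted in these cells.

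The sequence upstream of a start site is shown for 6 windows, because the letters TGCCGC, which read GCGGCA on the opposite strand, are the core that ZFP57 is known to bind at imprinted control regions. RefSeq on GRCh38.p14 gave windows for 22 of the 33 genes, and each window covers the 250 bases before an annotated start. The following windows run 5′ to 3′ on the strand of the gene, with these 6 letters in capitals. They lie at chr7:50793454-50793703 (minus strand) for GRB10, chr6:144008260-144008509 (minus strand) for the start shared by PLAGL1 and HYMAI, and chr20:43507447-43507696 (plus strand) for L3MBTL1. GRB10, PLAGL1 and L3MBTL1 have further windows at other starts, which hold no match and are not printed. Windows were set by annotated starts, and whether any of them, printed or not, lies in an imprinted control region was not examined. The windows of FAM50B at chr6:3849123-3849372 (plus strand), IGF2R at chr6:159968832-159969081 (plus strand) and MAGEL2 at chr15:23647868-23648117 (minus strand) hold no match and stand for contrast.
GRB10: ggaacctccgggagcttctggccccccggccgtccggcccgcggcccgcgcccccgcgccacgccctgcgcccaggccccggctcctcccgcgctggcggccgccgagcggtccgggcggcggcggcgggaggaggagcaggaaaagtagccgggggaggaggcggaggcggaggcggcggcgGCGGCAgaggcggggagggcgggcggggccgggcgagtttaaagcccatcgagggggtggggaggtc
PLAGL1 and HYMAI: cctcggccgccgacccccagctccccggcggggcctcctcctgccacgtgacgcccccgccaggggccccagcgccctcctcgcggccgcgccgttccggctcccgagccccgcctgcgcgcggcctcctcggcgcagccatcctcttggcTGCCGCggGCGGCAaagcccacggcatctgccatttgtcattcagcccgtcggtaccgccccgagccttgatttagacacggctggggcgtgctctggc
L3MBTL1: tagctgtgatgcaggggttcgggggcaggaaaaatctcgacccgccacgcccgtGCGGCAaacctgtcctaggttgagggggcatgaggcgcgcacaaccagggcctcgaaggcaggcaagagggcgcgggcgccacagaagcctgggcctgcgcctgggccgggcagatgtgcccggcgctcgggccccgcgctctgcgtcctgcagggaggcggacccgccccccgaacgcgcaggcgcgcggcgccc
FAM50B: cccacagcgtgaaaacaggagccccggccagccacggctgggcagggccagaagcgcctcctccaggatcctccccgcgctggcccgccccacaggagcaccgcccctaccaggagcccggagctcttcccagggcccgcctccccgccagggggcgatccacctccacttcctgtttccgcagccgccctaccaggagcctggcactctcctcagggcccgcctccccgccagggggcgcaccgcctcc
IGF2R: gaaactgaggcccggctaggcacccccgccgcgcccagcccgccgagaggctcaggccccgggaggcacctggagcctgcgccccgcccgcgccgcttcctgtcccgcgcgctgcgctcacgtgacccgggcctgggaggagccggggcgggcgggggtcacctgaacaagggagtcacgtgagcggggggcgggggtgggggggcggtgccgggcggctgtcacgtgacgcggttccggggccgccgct
MAGEL2: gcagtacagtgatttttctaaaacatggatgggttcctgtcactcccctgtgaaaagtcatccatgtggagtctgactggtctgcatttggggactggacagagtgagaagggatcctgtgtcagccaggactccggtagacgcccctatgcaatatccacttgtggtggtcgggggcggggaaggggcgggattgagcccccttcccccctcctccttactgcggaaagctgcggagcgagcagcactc

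The windows differ in their content of CpG, the dinucleotide that carries DNA methylation. The GRB10 window held 37 CpG, that of IGF2R 33, that of PLAGL1 and HYMAI 32, that of L3MBTL1 29, that of FAM50B 18 and that of MAGEL2 8. Over the 49 distinct windows of the imprinted genes the median was 16 CpG, against 11 over all 34943 windows of the reference. TGCCGC was read on either strand of 15 of the 49 windows (30.6%) and of 12.7% of all windows. CpG-rich windows hold it more often, with 25.9% of all windows at 20 or more CpG, 14.6% at 10 to 19 and 3.11% at 0 to 9. The corresponding windows of imprinted genes held it in 7 of 18, 6 of 15 and 2 of 16. Overlapping windows with different starts were counted separately, so these are not counts of separate sites. The 3 windows of MEG3, all at 10 to 19 CpG, overlap and hold the same single match. A match is a description of letters and no evidence of binding or methylation.

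Total counts ranged from 5212804, in ESX1 replicate 3, to 10644408, and mitochondrial genes took 17.0 to 18.3% of the counts in WT, 14.5 to 15.3% in NC and 19.2 to 19.9% in ESX1. The activated gene had 33, 28 and 30 counts in WT, 35, 27 and 34 in NC, and 562, 554 and 170 in ESX1. Relative to NC its log2 fold change (with its standard error, SE) was 3.85 (SE 0.243, edgeR adjusted p = 4.48e-08), and relative to WT it was 3.75 (SE 0.244, edgeR adjusted p = 1.87e-08). All adjusted p are from edgeR's quasi-likelihood test. Of 12 seminoma markers, which include POU5F1, NANOG and TFAP2C, 11 were tested, and their summed level was 4040 to 4946 normalized CPM in WT, 3022 to 3222 in NC and 1684 to 2041 in ESX1. Of the 11, 8 markers (72.7%) passed an adjusted p of 0.05 as lower in ESX1 than in NC, beside 2.37% of all tested genes. SOX17, also on this list, passed in none of the 3 comparisons. Its means were 227 normalized CPM in WT, 251 in NC and 245 in ESX1 (log2 fold change -0.03 in ESX1 against NC, edgeR adjusted p = 0.95). The sum did not overlap between any of the 3 groups, and its part in the differences below was not tested. Of 15 markers of somatic testis and stroma, 8 had too few counts for testing, and the sum of all 15 was 32.8 to 40.2 normalized CPM in WT, 47.5 to 56.7 in NC and 32.6 to 82.7 in ESX1. Of the 7 tested, 1 (14.3%) passed by adjusted p in each comparison. Of all tested genes, 4.25% passed in ESX1 against NC, 28.8% in ESX1 against WT and 17.1% in NC against WT. SOX9 rose in ESX1 against NC (log2 fold change 1.83, SE 0.397, edgeR adjusted p = 0.012). COL1A1 rose in ESX1 against WT (2.27, edgeR adjusted p = 0.000236) and in NC against WT (2.19, edgeR adjusted p = 0.000708). Of 5 embryonal carcinoma markers 2 were tested, with a sum of 73.9 to 85.6 normalized CPM in WT, 63.4 to 73.1 in NC and 55.8 to 66.1 in ESX1. DNMT3B made up most of this sum, and SOX2, the other tested marker, had means of 4.24 normalized CPM in WT, 9.84 in NC and 7.86 in ESX1 and rose in NC against WT (log2 fold change 1.23, SE 0.350, edgeR adjusted p = 0.0222). In bulk samples, fewer cells of a type and less RNA per cell cannot be told apart.

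Levels are compared between genes as RPKM, counts per kilobase of exon scaled for library size. In WT, 12 of the 33 genes were at 10 RPKM or more, 9 between 1 and 10, and 12 below 1. The median tested gene stood at 3.29 RPKM in WT, and 16 imprinted genes were above it. GNAS, which encodes the stimulatory G protein alpha subunit, was the highest at 56.0 ± 3.49 RPKM (SD, n = 3), above 96.8% of the tested genes. PEG10, a gene derived from a retrotransposon and used in the placenta, followed at 34.7 ± 4.72 RPKM (SD, n = 3). NDN, a growth suppressor of the Prader-Willi region, reached 31.0 ± 3.76 RPKM (SD, n = 3), and its WT values overlap those of PEG10. INPP5F, a phosphoinositide phosphatase, was at 27.8 ± 1.14, and GRB10, an adaptor that dampens insulin receptor signalling, at 24.5 ± 2.33 RPKM (SD, n = 3). MEST, a member of the hydrolase family, had 21.5 ± 1.98 and ZDBF2, a zinc finger gene, 19.3 ± 1.82 RPKM (SD, n = 3), which do not differ beyond their spread. IGF2R, the receptor that clears IGF2 and sorts lysosomal enzymes, was at 14.9 ± 1.37 RPKM (SD, n = 3) in WT.

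**Figure D1:**
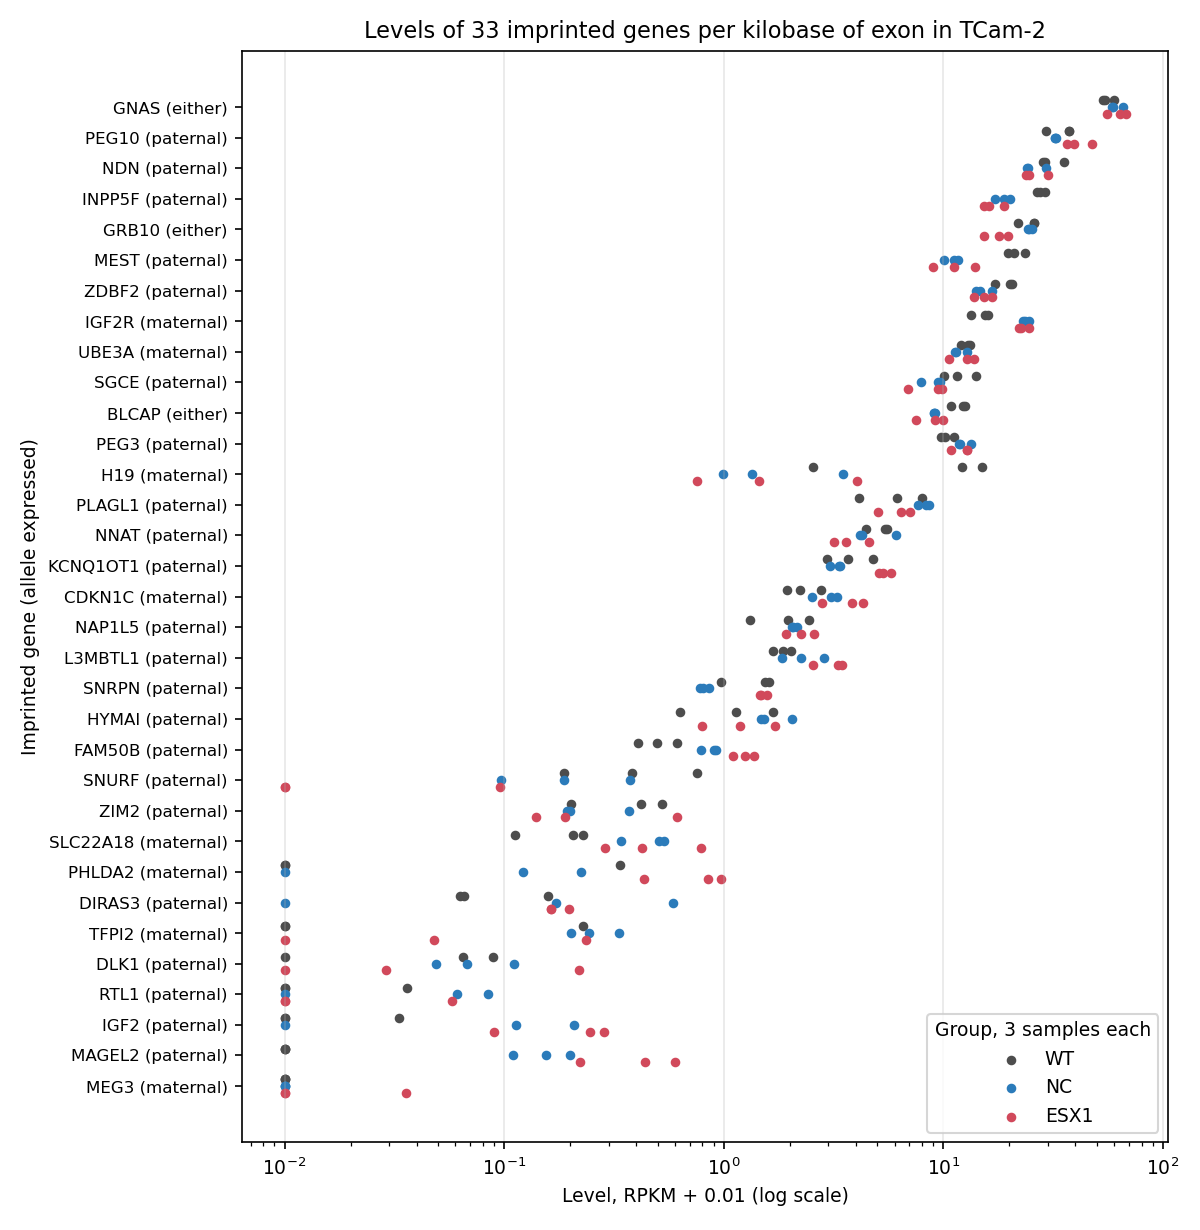
The horizontal axis gives the level per kilobase of exon (RPKM + 0.01, log scale) of the 33 imprinted genes, ordered by their WT mean, with 1 point per sample and colours for WT, NC and ESX1. GNAS is the highest at 56.0 RPKM in WT, and points at the left edge are samples listed at 0.

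At the other end stood genes with almost no reads. All 3 of the imprinted genes described here that lie in the DLK1-MEG3 domain of chromosome 14 were near the floor. MEG3, a long untranslated RNA of the maternal allele, had 4 counts in ESX1 replicate 1 and 0 in the other 8 samples. RTL1, a retrotransposon-derived gene needed in the placenta, had 0 to 3 counts per sample. DLK1, a regulator of differentiation, had 0 to 11 counts, the highest in ESX1 replicate 2. DIRAS3, a small GTPase, had 0 to 11 counts, and TFPI2, a protease inhibitor of the placenta, 0 to 8. A library at 0 counts allows up to 3 counts, or 0.302 to 0.554 normalized CPM by library, for counting error only. These 5 genes, with MAGEL2, PHLDA2 and SNURF, were the 8 that had too few counts for testing, so 25 were tested.

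Against NC, the control that shares the transfection and selection, few of the tested imprinted genes passed. A gene was called when it changed at least 2-fold with an adjusted p under 0.05. By edgeR 0 of the 25 were called, where 1.78% of all tested genes were. DESeq2 and limma on the authors' log2 values also gave 0, and 6 of the 25 (24%) had an unadjusted p below 0.05 in edgeR's quasi-likelihood test, beside 16.0% of all tested genes. By adjusted p alone 2 of the 25 (8%) passed, against 4.25% of all tested genes. KCNQ1OT1 rose, as did 1.88% of all tested genes, and GRB10 fell, as did 2.37%. The median log2 fold change over the 25 was 0.06, against 0.00 over all tested genes. It was 0.06 for the 17 paternally expressed genes, 0.13 for the 5 maternally expressed and -0.03 for the other 3.

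KCNQ1OT1 is a long untranslated RNA, made from the paternal copy of its domain, that is known to silence neighbouring genes on that copy. The count table gives it as ENSG00000269821.1, a single exon of 91667 bases on the minus strand of chromosome 11 from 2608328 to 2699994 (GRCh38). Its normalized CPM were 271, 336 and 439 in WT, 278, 307 and 310 in NC, and 467, 531 and 487 in ESX1. The ESX1 samples were all above the 6 controls, while WT and NC overlapped. The log2 fold change was 0.73 against NC (SE 0.140, edgeR adjusted p = 0.00497) and 0.51 against WT (SE 0.140, edgeR adjusted p = 0.0118). Against WT the call was lost without WT replicate 1 (log2 fold change 0.34, edgeR adjusted p = 0.0501) and without WT replicate 2 (0.47, adjusted p = 0.0512). The exon lies wholly within KCNQ1 on the other strand, and counting ignored strand, so unspliced KCNQ1 RNA would be counted here. KCNQ1 itself had 1 to 7 exonic counts per sample, which do not measure its unspliced RNA, and the share of such RNA was not tested.

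GRB10, on the minus strand of chromosome 7 from 50590063 to 50793462 (GRCh38), moved the opposite way. Its normalized CPM were 217, 256 and 258 in WT, 243, 253 and 242 in NC, and 179, 196 and 152 in ESX1. All 3 ESX1 samples lay below all 6 controls. For GRB10 the log2 fold change was -0.49 against NC (SE 0.117, edgeR adjusted p = 0.0232) and -0.47 against WT (SE 0.117, edgeR adjusted p = 0.00574). Against NC, the adjusted p by edgeR's quasi-likelihood test was 0.0733 without NC replicate 1, 0.112 without NC replicate 2, 0.104 without NC replicate 3 and 0.111 without ESX1 replicate 3, the shallowest library, where the log2 fold change was -0.38. GRB10 had 5 windows, and only the window printed above holds a TGCCGC match. None of its exon bases lay in an exon of another listed gene.

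Against both controls in the same direction, 0 of the 25 were called at 2-fold, by edgeR and also by DESeq2 and limma, where 1.53% of all tested genes were. By adjusted p alone KCNQ1OT1 and GRB10 passed, 2 of 25 against 3.72% of all tested genes, of which 1.59% were higher and 2.13% lower. FAM50B, KCNQ1OT1 and GRB10 were the 3 of 25 with all ESX1 samples outside the range of the 6 controls, which held for 13.6% of all tested genes. The count against both controls uses the same ESX1 samples in both comparisons.

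**Figure D2:**
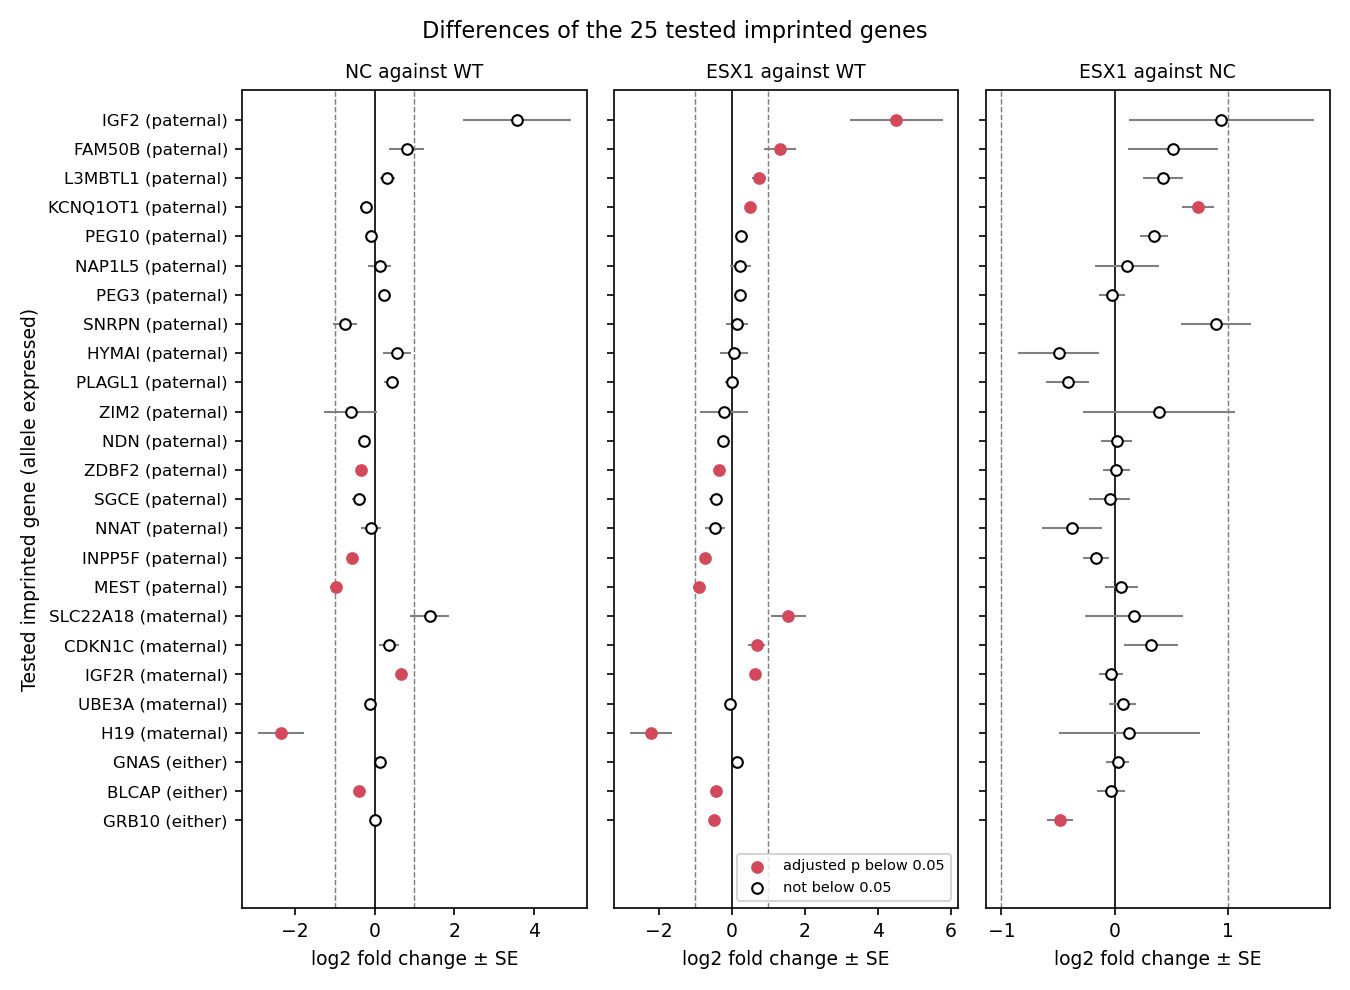
Each panel gives the log2 fold change ± SE of the 25 tested imprinted genes in 1 comparison, on its own scale, with filled points where the edgeR adjusted p was under 0.05 and dashed lines at a 2-fold change. Filled points number 6 in NC against WT, 13 in ESX1 against WT and 2 in ESX1 against NC.

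Against WT, more imprinted genes differed. Of the 25, 4 were called at 2-fold (16%), against 11.5% of all tested genes: IGF2, SLC22A18 and FAM50B rose (6.78% of all tested genes did) and H19 fell (4.77% did). By adjusted p alone 13 passed (52%), against 28.8% of all tested genes, 7 higher (12.9% of all were) and 6 lower (15.8% of all were). The other rises were CDKN1C, IGF2R, L3MBTL1 and KCNQ1OT1, and the other falls were MEST, INPP5F, GRB10, BLCAP and ZDBF2. Of the 17 paternally expressed genes 4 rose and 3 fell, with a median log2 fold change of 0.06. Of the 5 maternally expressed genes 3 rose and 1 fell, with a median of 0.63, which is the value of IGF2R. Of the other 3 genes 2 fell, with a median of -0.42. The median over all tested genes was 0.01.

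NC itself differed from WT, and this comparison uses the same WT samples. Of the 25 genes 1 was called at 2-fold (H19, which fell), against 5.27% of all tested genes in either direction and 2.15% that fell. By adjusted p alone 6 passed (24%), against 17.1% of all tested genes. IGF2R rose, as did 6.82% of all, and H19, MEST, INPP5F, BLCAP and ZDBF2 fell, as did 10.3%. These 6 genes are described with both modified groups side by side, since the differences from WT in ESX1 and in NC rest on the same 3 WT samples. The share of all tested genes with both modified groups outside the WT range was not computed, so such a separation is description only.

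MEST, on chromosome 7 from 130486171 to 130506296 (plus strand, GRCh38), had 109, 91.4 and 97.6 normalized CPM in WT, 54.2, 52.0 and 46.8 in NC, and 51.7, 64.9 and 41.6 in ESX1. Both modified groups lay below every WT sample and overlapped each other. For MEST the log2 fold change was -0.96 in NC against WT (SE 0.143, edgeR adjusted p = 0.000265), -0.91 in ESX1 against WT (SE 0.144, edgeR adjusted p = 0.000164) and 0.06 in ESX1 against NC (SE 0.145, edgeR adjusted p = 0.906). Of the exon bases of MEST, 24.7% lie in exons on the opposite strand, mainly of MESTIT1 and another antisense RNA and partly of COPG2, and reads shared by genes were not counted. MESTIT1, an antisense RNA, had 10 to 25 counts per sample, and COPG2, a subunit of the coat of transport vesicles, 299 to 643.

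INPP5F showed the same layout, with 176, 171 and 186 normalized CPM in WT, 110, 121 and 129 in NC, and 103, 120 and 97.9 in ESX1. All 6 modified samples were below the WT samples. For INPP5F the log2 fold change was -0.57 in NC against WT (SE 0.114, edgeR adjusted p = 0.0026) and -0.73 in ESX1 against WT (SE 0.115, edgeR adjusted p = 0.000151).

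IGF2R, on the plus strand of chromosome 6 from 159969099 to 160113507 (GRCh38), stood higher in the modified cells. Its normalized CPM were 231, 200 and 238 in WT, 365, 343 and 352 in NC, and 365, 338 and 331 in ESX1. No modified sample overlapped WT. For IGF2R the log2 fold change was 0.66 in NC against WT (SE 0.105, edgeR adjusted p = 0.000425), 0.63 in ESX1 against WT (SE 0.106, edgeR adjusted p = 0.000276) and -0.03 in ESX1 against NC (SE 0.105, edgeR adjusted p = 0.924).

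BLCAP, a small protein that limits cell growth, had 85.4, 97.1 and 98.3 normalized CPM in WT, 71.2, 71.6 and 71.8 in NC, and 72.4, 59.0 and 78.7 in ESX1. ZDBF2 had 178, 212 and 209 in WT, 146, 152 and 172 in NC, and 143, 172 and 159 in ESX1. For both genes all modified samples were below all WT samples. The log2 fold changes of BLCAP were -0.42 in ESX1 and -0.39 in NC against WT (adjusted p = 0.0148 and 0.0351 by edgeR's quasi-likelihood test), and those of ZDBF2 were -0.34 and -0.35 (adjusted p = 0.0395 and 0.0486). With single samples left out, the adjusted p reached 0.062 for BLCAP in ESX1 (without WT replicate 2, and 0.056 without ESX1 replicate 2), and 0.13 in NC (lost without any NC replicate or WT replicate 2 or 3), by edgeR's quasi-likelihood test. For ZDBF2 it reached 0.134 in ESX1, being lost without any NC replicate, WT replicate 2 or 3, or ESX1 replicate 1 or 3, and 0.204 in NC, being lost without any NC replicate, WT replicate 2 or 3, or ESX1 replicate 3. Other settings ended these calls as well. With upper-quartile factors the adjusted p by edgeR's quasi-likelihood test was 0.0543 in ESX1 and 0.0938 in NC for BLCAP, and 0.147 in ESX1 and 0.132 in NC for ZDBF2. ZDBF2 was also lost in both comparisons with RLE factors (adjusted p = 0.0512 and 0.0541 in edgeR), with no filter beyond 1 count, with at least 10 counts in every sample and after thinning to the smallest library, and in NC without mitochondrial genes. BLCAP was lost in NC under the same filters and thinning, and with only the 6 samples compared both genes were lost in ESX1.

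In the H19-IGF2 domain of chromosome 11, a maternal untranslated RNA and a paternal growth factor share enhancers. H19 (ENSG00000130600.17, 1995163 to 2001470, minus strand, GRCh38) had 7.21, 34.5 and 42.2 normalized CPM in WT, 9.85, 2.79 and 3.77 in NC, and 11.4, 2.11 and 4.06 in ESX1. WT replicate 1 lay within the range of the modified samples, so the groups overlapped, and within each group the highest sample was more than 3 times the lowest. For H19 the log2 fold change was -2.35 in NC against WT (SE 0.575, edgeR adjusted p = 0.00956), -2.22 in ESX1 against WT (SE 0.577, edgeR adjusted p = 0.00805) and 0.13 in ESX1 against NC (SE 0.619, edgeR adjusted p = 0.957). Without NC replicate 2 the adjusted p of NC against WT was 0.0543, and without NC replicate 3 it was 0.0553, by edgeR's quasi-likelihood test. Single libraries also moved the log2 fold change of H19, to -3.26 in ESX1 against WT without ESX1 replicate 1 and to -3.07 in NC against WT without NC replicate 1.

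IGF2, the fetal growth factor, had few reads everywhere. It had 0, 1 and 0 counts in WT, 12, 6 and 0 in NC, and 17, 5 and 8 in ESX1. Summed over the samples and scaled by library size, ESX1 held 30.4 times the WT level, with an exact 95% interval for counting error of 5.06 to 1242 that rests on a single WT count. On the same WT count, NC held 16.0 times the WT level (2.53 to 666). The fitted log2 fold change of ESX1 against WT was 4.51 (SE 1.27, edgeR adjusted p = 0.0128), a value that depends on the prior count. In NC against WT it was 3.58 (SE 1.36, edgeR adjusted p = 0.0796), and in ESX1 against NC 0.94 (SE 0.816, edgeR adjusted p = 0.647). Without WT replicate 2, which holds the WT count, the fitted value of ESX1 against WT was 6.48. For that comparison the edgeR adjusted p was 0.0541 without WT replicate 3 and 0.0509 without ESX1 replicate 1. Of the IGF2 exon bases, 23.4% lie in other genes, mostly INS-IGF2, and reads shared with them were not counted.

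Of the imprinted genes described here, 3 others lie in the domain of KCNQ1OT1 and are expressed from the maternal copy, where the untranslated RNA is absent. CDKN1C, an inhibitor of the cell cycle, had 5.02, 7.14 and 5.75 normalized CPM in WT, 6.53, 7.93 and 8.45 in NC, and 11.2, 9.86 and 7.20 in ESX1. SLC22A18, a membrane transporter, had 0.546, 1.17 and 1.04 in WT, 1.76, 2.79 and 2.65 in NC, and 4.16, 2.21 and 1.48 in ESX1. For both genes every ESX1 sample was above every WT sample and the ESX1 and NC samples overlapped.

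The log2 fold change of CDKN1C in ESX1 against WT was 0.68 (SE 0.244, edgeR adjusted p = 0.0447), and in ESX1 against NC it was 0.32 (adjusted p = 0.576). The call against WT was lost without WT replicate 1 or 3, NC replicate 2 or 3, or ESX1 replicate 1 or 2, with an adjusted p of up to 0.163, and also with no filter beyond 1 count, with only the 6 samples compared, after thinning and with limma (adjusted p from 0.0512 to 0.0769). For SLC22A18 the log2 fold change of ESX1 was 1.56 against WT (SE 0.487, edgeR adjusted p = 0.0236), with 0.17 against NC (adjusted p = 0.908). In NC against WT it was 1.39 (SE 0.487, edgeR adjusted p = 0.0587), and every NC sample was above every WT sample. That difference passed with upper-quartile factors, with only the 6 samples compared and without ESX1 replicate 1. In ESX1 against WT the adjusted p of SLC22A18 was 0.076 without WT replicate 1 and 0.175 without ESX1 replicate 1, where the log2 fold change was 1.05, and 0.101 after thinning to the smallest library. PHLDA2, which limits growth of the placenta, had 0, 0 and 3 counts in WT, 0, 1 and 2 in NC, and 4, 8 and 5 in ESX1. The ratio of the sums was 6.47 (exact 95% interval 1.87 to 34.5) against NC and 5.75 (1.66 to 30.6) against WT, for counting error only. In ESX1 the means of KCNQ1OT1, CDKN1C and PHLDA2 were above both control means. For SLC22A18 the ESX1 mean of 2.62 normalized CPM stood above the NC mean of 2.40 through ESX1 replicate 1, since the other ESX1 samples, at 2.21 and 1.48, were below it. Per kilobase, ESX1 levels of these 4 genes ran from 5.40 RPKM for KCNQ1OT1 to 0.49 RPKM for SLC22A18. The domain also holds genes outside this set, and OSBPL5, named here after its values were seen, was lower in ESX1 than in WT. Its log2 fold change was -0.62 against WT (SE 0.190, edgeR adjusted p = 0.0208) and -0.36 against NC (edgeR adjusted p = 0.383). ASCL2, a further gene of the domain, passed in neither comparison.

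FAM50B and L3MBTL1 are paternally expressed and passed against WT and not against NC. FAM50B, a retrocopy that is a single exon, had 0.764, 1.17 and 0.940 normalized CPM in WT, 1.76, 1.5 and 1.73 in NC, and 2.64, 2.11 and 2.40 in ESX1. The 3 groups did not overlap, with NC between WT and ESX1. The log2 fold change of FAM50B was 1.32 against WT (SE 0.431, edgeR adjusted p = 0.0291) and 0.51 against NC (SE 0.399, edgeR adjusted p = 0.595). These values rest on 7 to 26 counts per sample, and the adjusted p against WT was 0.0763 without WT replicate 1, 0.0759 without WT replicate 3, 0.0943 without ESX1 replicate 1, 0.0603 without ESX1 replicate 3, 0.0849 with no filter beyond 1 count and 0.0578 after thinning. L3MBTL1, a chromatin-compacting protein, had 17.8, 19.7 and 21.5 normalized CPM in WT, 30.4, 19.6 and 23.9 in NC, and 35.4, 27.3 and 36.8 in ESX1. All ESX1 samples of L3MBTL1 were above WT and overlapped NC. Its log2 fold change was 0.75 against WT (SE 0.182, edgeR adjusted p = 0.00513) and 0.42 against NC (SE 0.178, edgeR adjusted p = 0.239).

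**Figure D3:**
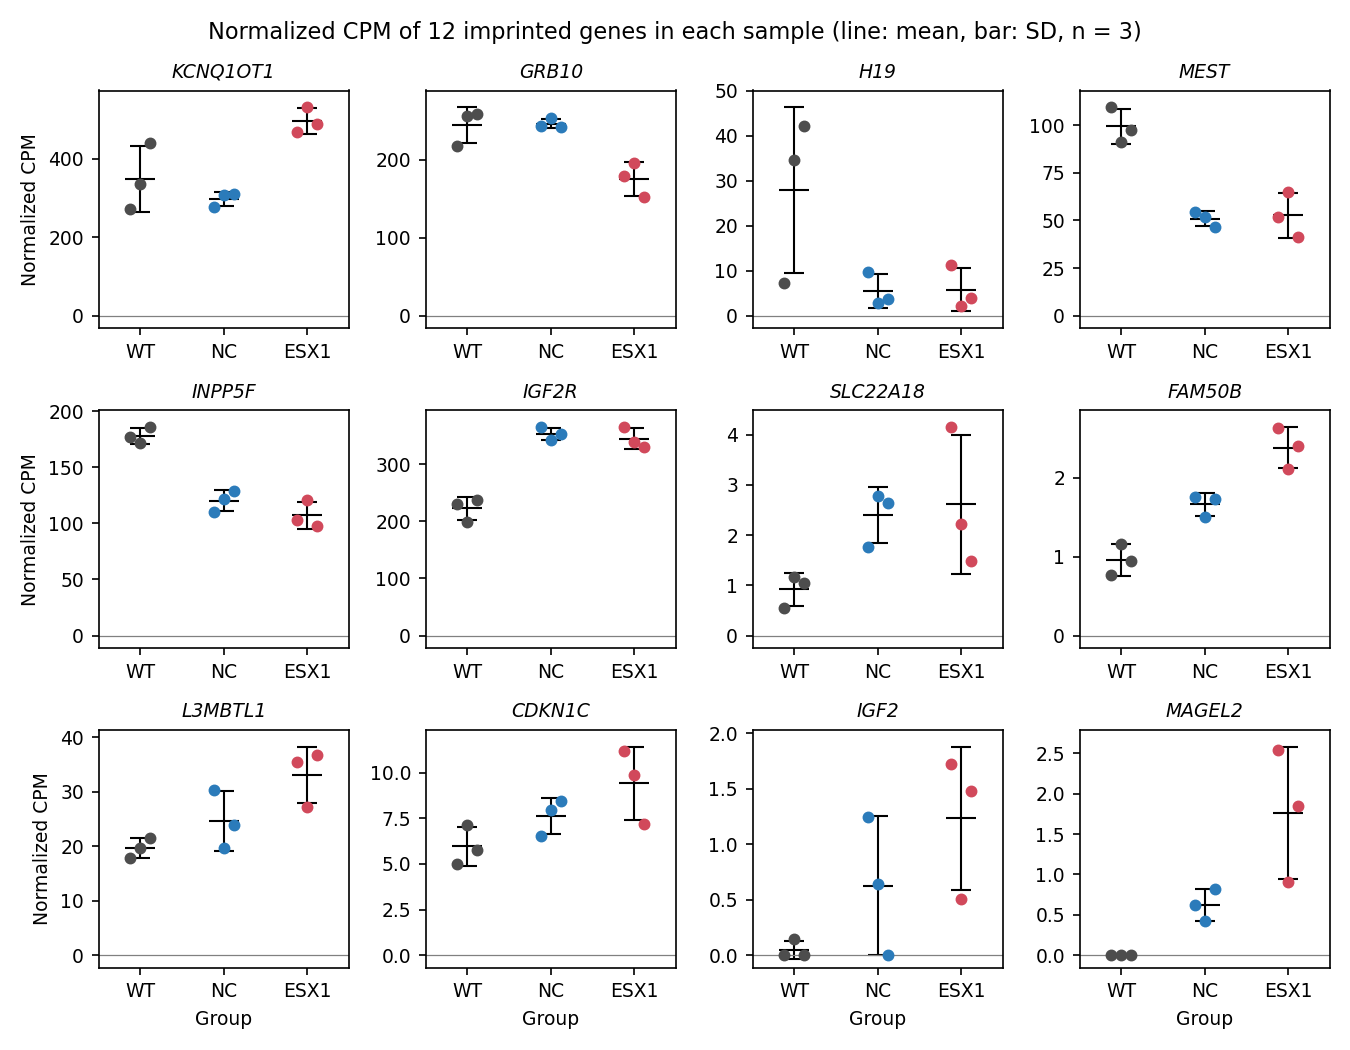
The vertical axes give normalized CPM of 12 imprinted genes in each of the 9 samples, with the line at the mean and the bar at 1 SD (n = 3). KCNQ1OT1 is higher and GRB10 lower in ESX1 than in all controls, MEST, INPP5F and IGF2R separate WT from both modified groups, and the H19 groups overlap.

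The Prader-Willi and Angelman region of chromosome 15 held 5 of the genes. MAGEL2, a regulator of protein recycling made from the paternal copy, had 0 counts in each WT sample, 6, 4 and 8 in NC, and 25, 9 and 10 in ESX1. Taken against 3 counts in each WT library, it was at least 4.96-fold higher in ESX1 and at least 1.78-fold higher in NC. In counts per library MAGEL2 was higher in each ESX1 than in each NC sample. It was not tested by the fit. Its neighbour NDN had 46.2 to 68.2 normalized CPM over the 9 samples, with log2 fold changes of -0.26 in NC and -0.24 in ESX1 against WT (adjusted p = 0.205 and 0.2, edgeR's quasi-likelihood test). UBE3A, the ubiquitin ligase of Angelman syndrome that is maternal in neurons, had 136 to 177 normalized CPM over the 9 samples, with adjusted p from 0.577 to 0.85 in the 3 comparisons (edgeR's quasi-likelihood test). Of its exon bases 92.3% lie within the span of SNHG14 on the other strand, and counting ignored strand. Unspliced SNHG14 RNA would therefore be counted as UBE3A, and SNHG14 itself had 417 to 1010 exonic counts per sample.

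SNRPN, a splicing protein gene, had 4.48, 4.66 and 2.82 normalized CPM in WT, 2.49, 2.25 and 2.34 in NC, and 4.56, 4.33 and 4.25 in ESX1. The NC samples were the lowest, below every WT and ESX1 sample. Its log2 fold change was 0.89 in ESX1 against NC (SE 0.309, edgeR adjusted p = 0.131) and -0.74 in NC against WT (adjusted p = 0.111). SNURF, read from the same transcript, had 0 to 6 counts. Of the exon bases of SNURF 69.3% and of SNRPN 39.2% lie in other exons, most of them shared between these genes, so their counts leave out most shared reads.

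**Figure D4:**
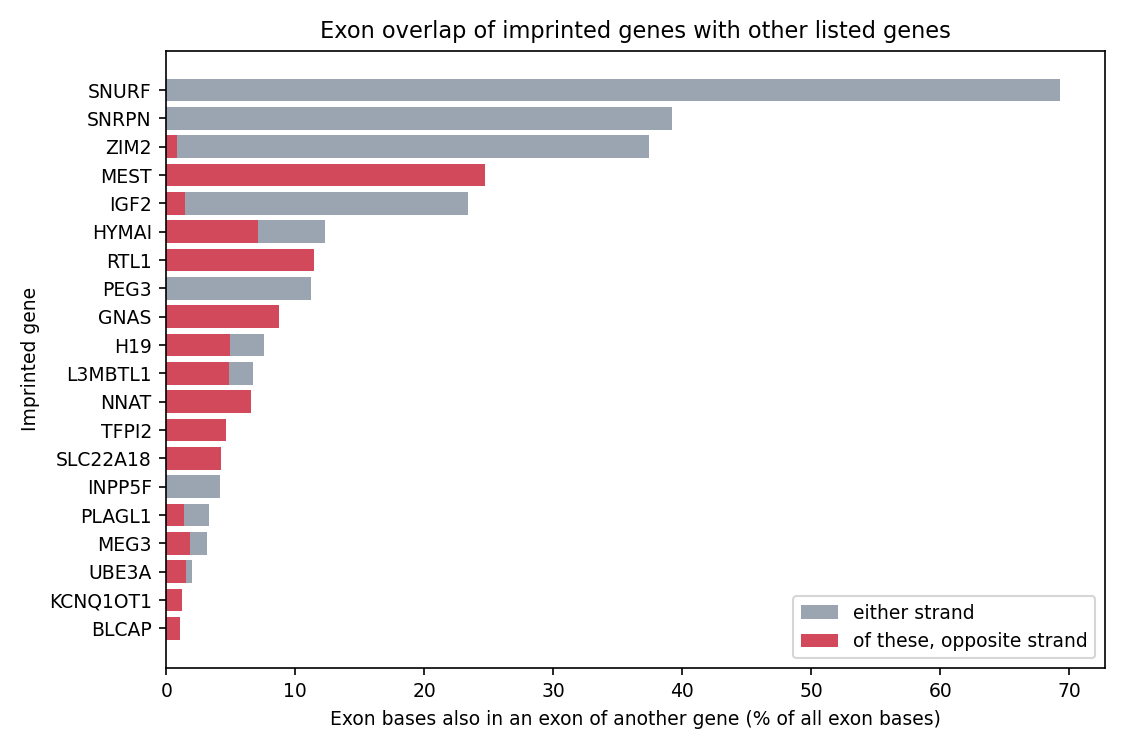
Bars give the share of exon bases (% of all exon bases) of the 20 imprinted genes whose exons meet an exon of another listed gene, with the red portion on the opposite strand. SNURF at 69.3%, SNRPN at 39.2% and ZIM2 at 37.4% share the most.

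The remaining tested genes did not pass in any of the 3 comparisons. ZIM2 had 2 to 17 counts per sample and shares 1037 exon bases with PEG3, a zinc finger gene of the same domain, which had 91.0 to 124 normalized CPM. PEG10 had 195 to 320 normalized CPM, highest in ESX1 replicate 2, with a log2 fold change of 0.35 in ESX1 against NC (edgeR adjusted p = 0.148). SGCE, a sarcoglycan gene next to PEG10, had a log2 fold change of -0.44 in ESX1 against WT (edgeR adjusted p = 0.0719). PLAGL1, a zinc finger regulator of growth, had 35.8 to 75.2 normalized CPM, and the untranslated HYMAI from the same start had 2.09 to 6.82. Their log2 fold changes were -0.42 and -0.50 in ESX1 against NC (adjusted p = 0.27 and 0.558, edgeR's quasi-likelihood test). The exon bases of HYMAI lie wholly within the span of PLAGL1 on the same strand. Unspliced PLAGL1 RNA would therefore be counted as HYMAI, and the 2 values are not independent. NNAT, a membrane proteolipid of the brain, had 4.13 to 7.93 normalized CPM, and NAP1L5, a nucleosome assembly protein relative, 3.03 to 5.94. The exons of NNAT lie wholly within the span of BLCAP, and those of NAP1L5 within that of HERC3, each on the other strand. Since counting ignored strand, unspliced RNA of those genes would be counted here too. GNAS had 711 to 903 normalized CPM, with adjusted p from 0.255 to 0.946 (edgeR's quasi-likelihood test).

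Of 45 further imprinted genes on a second list, 27 were tested. Against NC 3 of the 27 (11.1%) were called at 2-fold, 2 higher and 1 lower, beside 1.78% of all tested genes, and against WT the same genes were called, beside 11.5% of all. DIO3, the enzyme that inactivates thyroid hormone, lies in the domain of DLK1 and MEG3 and had 3, 1 and 1 counts in WT, 6, 9 and 10 in NC, and 59, 23 and 60 in ESX1. The log2 fold change of DIO3 was 2.83 against NC (SE 0.527, edgeR adjusted p = 0.00409), while DLK1, RTL1 and MEG3 stayed near the floor. ATP10A, a lipid flippase, had 60.2, 67.9 and 83.9 normalized CPM in WT, 35.8, 30.3 and 27.9 in NC, and 16.2, 17.7 and 11.1 in ESX1. Its log2 fold change was -1.04 against NC (SE 0.181, edgeR adjusted p = 0.00263) and -2.21 against WT, beside -1.17 in NC against WT. ANO1, a chloride channel, had 16, 27 and 22 counts in WT, 17, 23 and 15 in NC, and 71, 59 and 21 in ESX1. In normalized CPM, ANO1 in ESX1 replicate 3 (3.88), the shallowest library, lay below WT replicate 2 (3.94), so ESX1 and WT overlapped. Its log2 fold change was 1.58 against NC (SE 0.368, edgeR adjusted p = 0.0185) and 1.14 against WT.

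Of 22 factors that maintain or reset imprints, 17 were tested. Against NC 1 of the 17 (5.88%) passed by adjusted p, beside 4.25% of all tested genes, with a change of less than 2-fold. Against WT 11 of the 17 (64.7%) passed, beside 28.8% of all, with 3 higher (12.9% of all were) and 8 lower (15.8% of all were), and 2 of the falls were beyond 2-fold (4.77% of all were). In NC against WT 6 of the 17 (35.3%) passed, beside 17.1% of all, with 2 higher (6.82% of all were) and 4 lower (10.3% of all were). ZFP57 had 0, 0 and 3 counts in WT, 0 in each NC sample and 1, 0 and 0 in ESX1, and was not tested. The factor that passed against NC was UHRF1, which recruits the maintenance methyltransferase to replicated DNA and is named after its values were seen. Its normalized CPM were 28.9, 39.8 and 39.9 in WT, 38.5, 31.1 and 35.1 in NC, and 24.9, 21.4 and 21.1 in ESX1. All 3 ESX1 samples of UHRF1 were lower than the 6 control samples (log2 fold change -0.63 against NC, SE 0.161, edgeR adjusted p = 0.0338). The 2 falls beyond 2-fold against WT were of DNMT3L (-1.80), a cofactor of new methylation in germ cells, and NLRP7 (-1.88), a maternal imprinting factor, named here after their values were seen, beside -1.76 and -1.86 in NC against WT.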

How the data were processed

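Total RNA of 9 TCam-2 samples was depleted of ribosomal RNA, made into stranded libraries and sequenced from both ends. The authors aligned the reads with HISAT2 2.0.5 to GRCh38.p7, and pairs were counted per gene without using strand. The header of the deposited count table names featureCounts 1.5.2 and GENCODE 26, while the submitters' processing notes name featureCounts 1.6.5. Reads over several genes were not counted. A second table deposited by the authors holds log2 values, normalized with DESeq2 by an unnamed transformation, which served only as an alternative.

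Groups came from the sample titles. In R 4.3.3 with edgeR 4.0.16, filterByExpr left 18452 genes, TMM scaled the libraries, and all 9 samples entered a single quasi-likelihood fit of group means, with p-values adjusted by Benjamini-Hochberg across the 18452 genes. Each SE was taken from the F statistic of the fit, as the absolute log2 fold change over the root of F. Calls needed an adjusted p under 0.05 together with a 2-fold change. Normalized CPM and RPKM use TMM-scaled totals. The p-values rest on 3 replicates per group and total counts of 5212804 to 10644408, and intervals cover counting error only. HYMAI has a second row of 238 bases with 0 counts, and 4 copies of genes on other scaffolds also have 0 counts. All genes of the set are accounted for, and those called, or past the adjusted p against both controls, are given in every sample. Of the other lists, genes called against both controls are named. The set and the lists were chosen with earlier results of these data known. Alternatives used limma 3.58.1, DESeq2 1.42.0, other scalings and filters, thinning to the smallest library, a replicate block and leaving out each sample.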

Additional observations from a re-analysis of the deposited data

How the results depend on the processing

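No gene result changed sign. Of the 21 differences of imprinted genes past an adjusted p of 0.05, followed over up to 19 settings, 10 stayed past it in all of them, and 67 of 394 recomputed values were no longer past it. The number of imprinted genes called in ESX1 against WT was 4, and became 13 with no minimum fold, 1 with at least 10 counts in every sample (a filter that removes IGF2, SLC22A18 and FAM50B), 1 after thinning to the smallest library, 1 with limma on the authors' log2 values (where IGF2, SLC22A18 and FAM50B had log2 fold changes of 0.94, 0.59 and 0.53), and 1 to 6 with single samples left out (1 without ESX1 replicate 1). In NC against WT it was 1, and became 6 with no minimum fold, 2 with upper-quartile factors, 3 with no filter beyond 1 count, 2 with only the 6 samples compared, and 1 to 3 with single samples left out (3 without WT replicate 2, and 2 without WT replicate 1 or 3, NC replicate 1 or 3, or ESX1 replicate 1 or 2). In ESX1 against NC, and against both controls, it was 0 and became 2 with no minimum fold, and stayed 0 with any sample left out. The log2 fold change of ESX1 ranged from 3.71 to 4.09 against NC and from 3.61 to 4.0 against WT with single samples left out. Upper-quartile factors moved the median log2 fold change of all genes from 0.01 to 0.11 in ESX1 against WT.

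Same-numbered samples were not paired by the labels, and their deviations correlated at -0.03 to 0.19. In a fit with a replicate block, the imprinted genes called numbered 0 in ESX1 against NC, 4 in ESX1 against WT, 1 in NC against WT and 0 against both controls, and SGCE passed in ESX1 against WT (-0.45, edgeR adjusted p = 0.0374). Low counts limit IGF2, SLC22A18, FAM50B, PHLDA2 and MAGEL2, and overlapping exons limit SNRPN, SNURF and ZIM2.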
